A study of Mus musculus with 1 sample.

Results

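The genes described here are 37 mouse genes of ribosome biogenesis and Myc-driven growth, out of 25661 genes counted in the deposited table. They were taken by name, whatever their values, and grouped by role. The groups were 3 core proteins of box C/D snoRNPs (Fbl, Nop56, Nop58), 4 of box H/ACA snoRNPs (Dkc1, Nhp2, Nop10, Gar1) and 4 nucleolar chaperones (Ncl, Npm1, Npm3, Nolc1). They also held 4 factors of the small ribosomal subunit (Rrp9, Rrp12, Wdr43, Utp20), 9 of the large subunit (Nop2, Nop16, Bop1, Pes1, Wdr12, Rrs1, Gnl3, Ppan, Mrto4) and the pair of large RNA polymerase I subunits (Polr1a, Polr1b). The last 11 were growth genes outside the nucleolus or with further functions (Srm, Odc1, Cad, Eif4a1, Eif5a, Ran, Apex1, C1qbp, Tfb2m, Mif, Pa2g4).

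Ribosomes are built in the nucleolus, where RNA polymerase I transcribes the precursor of ribosomal RNA. Small nucleolar RNPs modify that precursor, and assembly factors cleave it and fold it into the small and the large subunit. The transcription factor Myc is known to raise many of these genes, and in the marrow it is active in growing progenitors and low in maturing neutrophils, while Mxd1 shares Myc's partner Max and acts against it.

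The study sequenced mouse bone marrow cells from 1 naive mouse and 1 mouse injected with LPS, a bacterial endotoxin. Lineage-negative cKit-positive progenitors and granulocyte-monocyte progenitors committed to monocytes (GMP-MoPs) came from each mouse, and common monocyte progenitors (cMoPs) from the naive mouse. The sorted populations were stained with 5 barcoded tags, A961 to A965, pooled and captured on the BD Rhapsody microwell system as 1 library, which was amplified by TAS-Seq and read from the transcript end. For A961, A962 and A964, 100 cells each were loaded, and for A963 and A965, 15000 each. The labels do not say which tag marked which population or mouse, so tags are compared here by name only, and strain, age and sex are not given in the sources used here.

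After filtering, 10528 cells were used. The large tags were A963 with 4716 cells and A965 with 5567, and the small ones A961 with 68, A962 with 104 and A964 with 73. Cells held 8822 to 140994 counts, with tag medians from 20430.5 to 27801. Summed counts ran from 1965440 for A961 to 175876760 for A965, so values of the small tags are the less precise. Xist, a transcript of the inactive X chromosome, stood at 611 CPM (each gene's counts scaled to the same total for every tag and gate) in A963 and 11.8 in A965, while summed Y-linked genes stood at 6.46 and 79.5 CPM. A963 and A965 therefore differed in sex-linked transcripts as well as in their tag. Each tag was 1 set of cells in 1 library, so no test between tags or gates was made. Intervals are exact 95% intervals for counting error, and cells of a tag are not replicates.

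Cells were assigned to 13 gates by the mean standardised level of 5 lineage markers per gate, with a score of at least 0.75. A gate is a range of a score, not a cell type. In A963, 6.19% of cells entered no gate and 88 of the gated cells lay within 0.1 of the limit. In A965 the corresponding values were 5.64% and 108 cells. Of 52 further lineage markers held back as a check, 51 were above the median of the gates in their own gate, in each of the tags. The highest level was in the own gate for 30 of them in A963 and 31 in A965, but for 0 of 4 in the early erythroid and in the early monocyte gate. Those gates are named for their gating markers alone (Klf1, Gata1, Car1, Ermap and Epor, and F13a1, Ly86, Irf8, Csf1r and Tifab).

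The E-box that Myc and Mxd1 are known to bind was searched for around the transcription starts of the genes. It is spelled CACGTG, which reads the same on the opposite strand. Windows of 250 bases before to 50 after the start (RefSeq, GRCm38.p6) were at hand for 31 of the 37 genes, and not for Bop1, Fbl, Npm1, Rrp12, Rrs1 and Srm. The motif was present for 8 of the 31 (25.8%): Apex1, Eif4a1, Eif5a, Nop2, Pes1, Ran, Utp20 and Wdr43. It was present for 8.09% of all 27025 genes with a window and for 12.6% of the 5839 of these with at least 10 CPM over all cells. Genes with several windows counted if any held the motif. With the first window only, the shares were 22.6%, 7.24% and 11.1%. The 4 stretches below show where the motif lay in 4 of these 8 genes, Ran, Eif5a, Nop2 and Apex1, which differed in how far their levels ranged over the gates. Capitals mark the motif, and each stretch runs toward the RefSeq start, trimmed so that no GENCODE exon is included. The Ran stretch is chr5:129020006-129020068 on the plus strand, and the Eif5a stretch is chr11:69921387-69921506 on the minus strand, in an intron of a longer Eif5a transcript. The Nop2 stretch is chr6:125131763-125131882 and the Apex1 stretch chr14:50924894-50924948, both on the plus strand and in no annotated transcript.
Ran: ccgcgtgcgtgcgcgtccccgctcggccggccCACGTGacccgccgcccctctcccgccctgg
Eif5a: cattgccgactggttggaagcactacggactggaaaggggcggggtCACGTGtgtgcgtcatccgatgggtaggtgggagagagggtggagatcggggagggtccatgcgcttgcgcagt
Nop2: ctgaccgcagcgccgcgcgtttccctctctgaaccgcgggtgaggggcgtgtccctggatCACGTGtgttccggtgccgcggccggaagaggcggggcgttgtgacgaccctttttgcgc
Apex1: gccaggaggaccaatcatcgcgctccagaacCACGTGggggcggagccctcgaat
In the stretches shown the motif began 118 bases before the start in Ran, 74 in Eif5a, 60 in Nop2 and 24 in Apex1. A match says only that these letters are present. Of other gene lists, the motif was present for 8 of 40 further ribosome biogenesis factors, 12 of 25 further growth genes (48.0%), 1 of 13 S-phase genes and 0 of 10 mitotic genes.

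Several of the genes carry small nucleolar RNAs, the guides of rRNA modification, within their own introns or exons. In GENCODE M21 (GRCm38), 9 of the 37 held 25 snoRNA or scaRNA genes on the same strand. How many of all genes hold such genes is not given, so 9 of 37 has no share to stand beside. Nop56 on chromosome 2 (130274430 to 130279313, plus strand) held 5, Nop58 on chromosome 1 (59684971 to 59719044, plus strand) held 4, and Ncl, Wdr43, Gnl3 and Eif4a1 held 3 each. Ppan held 2, and Dkc1 and Odc1 held 1 each.

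The 37 genes were highest in early erythroid and megakaryocyte cells, intermediate in stem, lymphoid, early granule and early monocyte cells, and lowest in cells with secondary granule or late neutrophil genes. Their summed level in the early erythroid gate was 12499 CPM in A963 (12446 to 12552) and 13309 in A965 (13212 to 13407). The megakaryocyte gate followed at 10803 and 11096 CPM. At the other end, the secondary granule gate held 1950 and 1824 CPM and the late neutrophil gate 1597 and 1201 CPM. The highest gate was 7.83-fold above the lowest in A963 and 11.1-fold in A965, and the intervals of these 4 gates did not overlap within a tag. Between them lay the stem gate (8264 and 9299 CPM), the early granule gate (9139 and 8955), the lymphoid gate (8021 and 7362), the early monocyte gate (7810 and 7488), and the late erythroid gate (6903 and 7442). Basophil or mast cell progenitors stood at 6816 and 7480 CPM, conventional dendritic cells at 5848 and 4659, plasmacytoid cells at 5438 and 5074, and later monocytes at 5398 and 4089. RNA of other cells was read from genes that a gate should lack. In gates other than the erythroid pair, globins stood at 0.142% to 0.532% of their level in late erythroid cells of the same tag. Late granule genes stood higher, at 0.89% to 7.25% of their level in secondary granule cells in the 10 gates outside the granule and neutrophil ones. The highest of these shares were in basophil or mast (7.25%) and megakaryocyte cells (6.67%) of A965, and the part of such RNA in the levels given here was not tested.

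**Figure D1:**
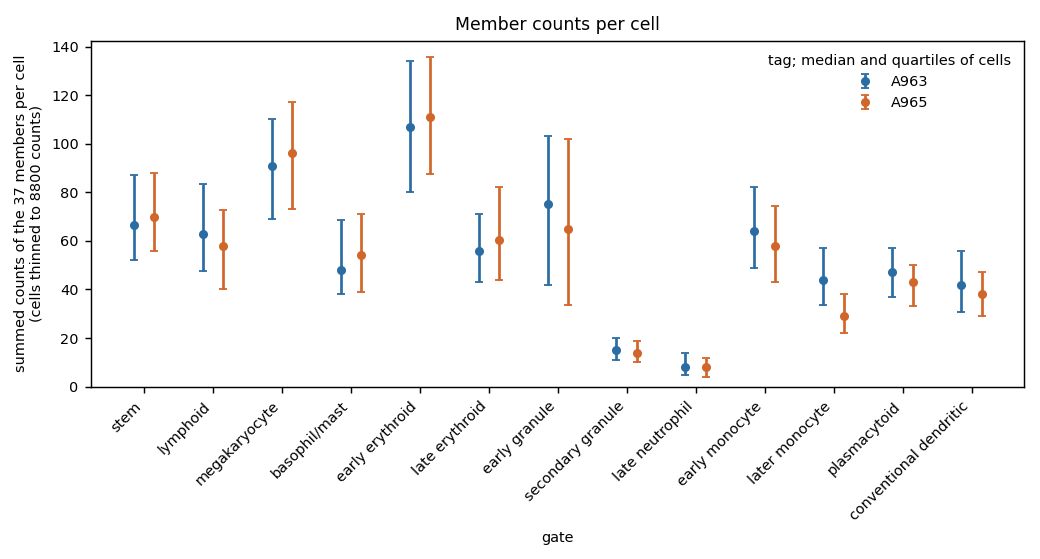
Summed counts of the 37 genes per cell after each cell was thinned to 8800 counts, by gate, with points for the median and bars for the quartiles of cells of A963 and A965. Early erythroid cells sat at medians of 107 and 111 counts, while secondary granule cells sat at 15 and 14 and late neutrophil cells at 8 and 8.

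The spread among cells of a gate was wide in early granule cells. With every cell thinned to 8800 counts, the quartiles there were 42 and 103 counts in A963 and 33.5 and 102 in A965, around medians of 75 and 65. Secondary granule cells were narrow, with quartiles of 11 and 20 counts in A963 and 10 and 19 in A965. Neither of these ranges reached the other, so the lower quartile of early granule cells lay above the upper quartile of secondary granule cells in each of the tags.

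All 3 box C/D genes, whose proteins form the RNPs that methylate rRNA, were highest in the early erythroid gate. Fbl, the methyltransferase itself, stood there at 301 CPM in A963 and 315 in A965, against 20.2 and 14.3 CPM in the secondary granule gate. Nop56, a scaffold protein, went from 309 and 324 CPM in early erythroid cells to 14.5 and 7.71 in late neutrophil cells. Nop58, the other scaffold, went from 236 and 246 CPM to 12.1 and 7.22 CPM between the same gates. Within each of the tags, megakaryocyte cells came next after early erythroid cells, with Fbl at 273 and 269 CPM.

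The box H/ACA genes, whose proteins convert uridines of rRNA to pseudouridine, were in sum also highest in early erythroid, next in megakaryocyte and lowest in late neutrophil cells of each of the tags. Between these gates the order was not that of the box C/D genes. In basophil or mast cells the box H/ACA genes summed to 714 and 684 CPM, above their 635 and 667 CPM in late erythroid cells. The A965 sums lay close, and no interval is given for them, so their order there is uncertain. The box C/D genes instead summed to 338 and 405 CPM in basophil or mast cells against 454 and 466 in late erythroid cells. Dkc1, the pseudouridine synthase, stood at 174 and 179 CPM in early erythroid cells and at 12.1 and 9.21 in late neutrophil cells. Nhp2, a core protein of the RNP, ran from 499 and 526 CPM to 44.8 and 34.8. Nop10, the smallest core protein, was highest in early erythroid cells of A963 (495 CPM) and in megakaryocyte cells of A965 (583 CPM). Gar1, another core protein, went from 96.0 and 105 CPM to 4.84 and 2.99, the lower levels on few counts. Its profile was the closest of the 37 to the mean of the others. The Pearson correlation of Gar1 with that mean was 0.989 over the 26 profiles of gate and tag. These profiles share a library and its depth, so the correlation is a description.

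Nucleolar chaperones were also lowest in the neutrophil gates, but differed in the erythroid pair. Npm1, or nucleophosmin, stood at 2251 and 2409 CPM in early erythroid cells, 861 and 993 in late erythroid cells, and 152 and 140 in secondary granule cells. Ncl, or nucleolin, was at 1097 and 1196 CPM in early erythroid and 1114 and 1109 in megakaryocyte cells, against 102 and 75.4 in late neutrophil cells. Nolc1, a chaperone of snoRNPs, went from 241 and 247 CPM in early erythroid cells to 13.3 and 8.96 in late neutrophil cells. Npm3, a relative of nucleophosmin, had its highest level in early erythroid cells (184 and 193 CPM) but stood at 45.9 and 85.5 CPM in late erythroid cells.

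Small-subunit factors had few counts. Wdr43, which links transcription of the rRNA precursor to its processing, stood at 55.5 and 60.0 CPM in early erythroid cells and 3.91 and 3.02 in secondary granule cells. Rrp9, a protein of the U3 snoRNP, stood at 33.5 and 40.5 CPM against 1.23 and 0.603 CPM. Rrp12, a factor of subunit export and processing, reached 19.8 and 19.1 CPM in early erythroid cells, and Utp20, a scaffold of the small-subunit processome, 17.4 CPM in lymphoid cells of A963 and 18.5 CPM in megakaryocyte cells of A965. In late neutrophil cells of A963, Rrp9, Rrp12 and Utp20 had no count, which allows a level of up to 4.46 CPM for each, so no fold is given for them there.

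Large-subunit factors ran in parallel. Gnl3, or nucleostemin, a GTPase of subunit assembly, went from 174 and 177 CPM in early erythroid cells to 5.65 and 2.69 in secondary granule cells, a range of 30.9-fold in A963 and 65.7-fold in A965. Pes1, Bop1 and Wdr12 form a complex needed for the large-subunit rRNA: Wdr12 went from 129 and 144 CPM in early erythroid to 8.47 and 6.72 in late neutrophil cells, and Bop1 only from 48.9 and 50.1 to 9.68 and 7.46. Ppan ranged 18.3-fold in A963 and 38.1-fold in A965, and Nop16 15.6-fold and 30.9-fold. The lowest Nop16 levels, 6.05 and 2.49 CPM in late neutrophil cells, rest on few counts. Nop2, an rRNA methyltransferase, stood at 46.7 and 52.6 CPM in early erythroid and 3.74 and 2.93 in secondary granule cells. Mrto4 and Rrs1, both of subunit assembly, were highest in early erythroid cells too, at 174 and 188 CPM and at 82.9 and 83.5 CPM.

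Of the RNA polymerase I subunits, Polr1a was the less tied to the other genes. This largest subunit stood between 5.53 and 29.8 CPM in A963 and between 4.45 and 26 in A965, and its correlation with the mean of the other genes was 0.711, the lowest of the 37. It was highest in the basophil or mast cell gate of A963 and in early erythroid cells of A965. Polr1b, the other large subunit, had a correlation of 0.85 and ran from 22.0 CPM in early erythroid to 2.17 in secondary granule cells of A963.

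The growth genes differed in their ranges. Srm, spermidine synthase, ranged 72.1-fold over the gates of A965, from 3.06 CPM in secondary granule to 221 CPM in early erythroid cells. In A963 its highest level was 178 CPM, in the same gate, and its lowest rested on 2 counts. Eif5a, a translation factor that carries hypusine made from spermidine, ranged 3.14-fold and 3.90-fold. Eif4a1, the cap-binding complex's RNA helicase, ranged 4.77-fold and 6.74-fold, and Ran, the GTPase of nuclear transport, 5.34-fold and 6.11-fold. Odc1, ornithine decarboxylase, was the only one of the 37 with its highest level in late erythroid cells, at 350 and 308 CPM, and its correlation with the others was 0.796. Mif, a secreted cytokine-like protein, was highest in megakaryocyte cells of A963 (1103 CPM) and early granule cells of A965 (1041 CPM). C1qbp, a mitochondrial matrix protein, went from 393 and 425 CPM in early erythroid to 11.8 and 8.68 in secondary granule cells. Tfb2m, a mitochondrial transcription factor, was highest in megakaryocyte cells, at 23.7 and 24.5 CPM. Apex1, a DNA repair endonuclease, was highest in lymphoid cells of A963 (128 CPM) and megakaryocyte cells of A965 (151 CPM). It ranged 86.7-fold in A965, where its lowest level, 1.74 CPM in late neutrophil cells, rests on few counts. Cad, the enzyme that opens pyrimidine synthesis, reached 45.6 CPM in early erythroid cells of A963 and 41.7 in megakaryocyte cells of A965, and Pa2g4, a growth-regulated RNA-binding protein, 436 and 467 CPM in early erythroid cells.

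**Figure D2:**
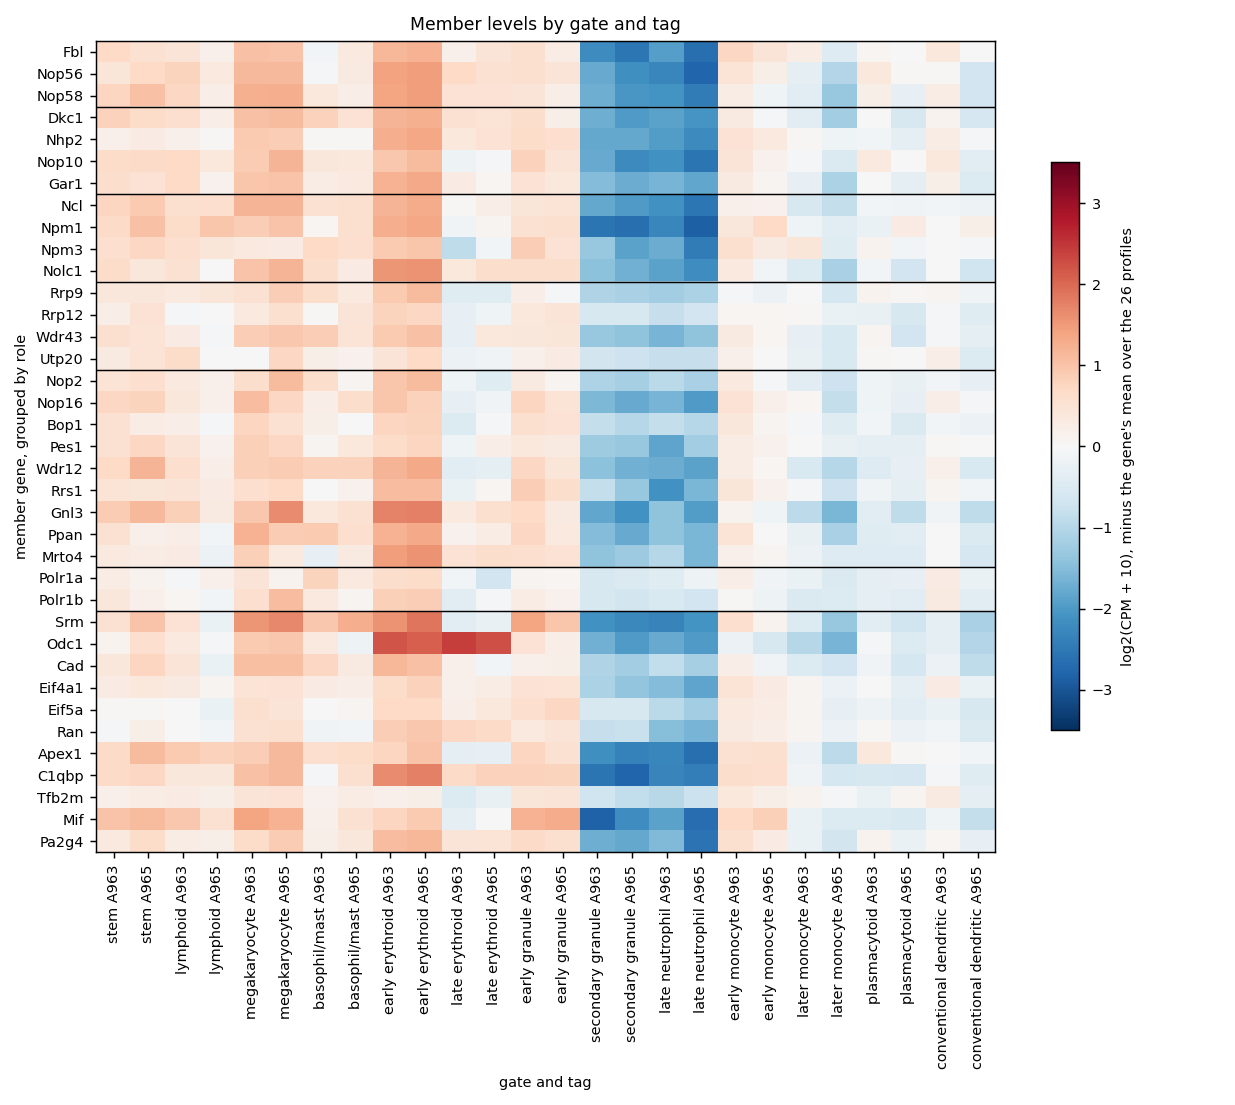
Level of each of the 37 genes in 13 gates of A963 and A965, as log2(CPM + 10) minus the gene's mean over the 26 profiles; horizontal lines separate the roles. The secondary granule and late neutrophil columns are below the mean for nearly every gene, and the early erythroid columns above it. In the early erythroid gate 27 of 37 genes in A963 and 28 in A965 had their highest level. The same count over all genes is not given.

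Counting genes, 27 of 37 were highest in early erythroid cells of A963 and 28 of 37 in those of A965, and 6 in each tag were highest in megakaryocyte cells. The lowest gate was late neutrophil for 25 genes in A963 and 27 in A965, and secondary granule for 12 and 9. It was late erythroid for 1 in A965, which was Polr1a. The same counts over all genes are not given, so these have no share to stand beside. In late neutrophil cells the 10 most abundant genes took 45.3% of counts in A963 and 43.8% in A965.

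The step from early granule to secondary granule cells was where the genes differed most. Early granule cells carry azurophil granule genes such as Mpo and Elane, and secondary granule cells carry Camp, Ltf and Ngp. The summed level of the genes was 4.69-fold lower in secondary granule cells of A963 (4.64 to 4.74) and 4.91-fold lower in A965 (4.87 to 4.95). In A963 all 37 were lower by at least 1.5-fold, with 10 CPM added to each side, where 37.7% of 7885 genes with at least 10 CPM in either gate were lower by that much. In A965, 36 were, against 40.7% of genes, and the exception was Polr1a, at 6.25 against 13.9 CPM. The median log2 ratio of the 37 was -2.13 in A963 and -2.10 in A965, against -0.40 and -0.46 over all genes. None of the 37 was higher by that much, where 7.52% of genes in A963 and 5.3% in A965 were.

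On the log2 scale, Mif showed the largest difference in A963, with 50.3 CPM in secondary granule and 994 in early granule cells, 19.8-fold lower. In A965 C1qbp did, with 8.68 against 210 CPM, 24.1-fold lower. Without the added CPM, Srm had a larger fold than either, at 4.55 against 153 CPM in A963 and 3.06 against 114 in A965, 33.7-fold and 37.4-fold lower. Apex1 was 17.4-fold and 22.8-fold lower. These 4 growth genes were lower in the later gate of each tag. Among nucleolar chaperones, Npm1 differed most, by 9.0-fold and 9.94-fold, and Ncl least, by 4.95-fold and 5.89-fold, with Nolc1 at 5.60-fold and 7.21-fold. Gnl3 was 14.1-fold lower in A963 and 21.7-fold in A965, and Nop2 6.82-fold and 7.07-fold. Among snoRNP proteins Fbl was 9.61-fold and 11.1-fold lower, Nop58 6.18-fold and 7.88-fold, Nop10 6.77-fold and 7.48-fold, and Gar1 8.94-fold and 12.8-fold. Wdr43 was 9.19-fold and 12.0-fold lower, and Utp20 7.86-fold and 22.4-fold, on few counts. The smallest folds were those of Eif5a, 2.21-fold and 2.44-fold, Ran, 2.25-fold and 2.38-fold, and Polr1a, 2.65-fold and 2.23-fold. Tfb2m was 4.42-fold lower in A963, and Polr1b 5.29-fold and 6.34-fold lower. The 10 CPM added on the log2 scale shrink the differences of these scarce genes.

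Other genes of the pathway were lower as well, with smaller medians. Of 45 further ribosome biogenesis factors, 44 in A963 and 43 in A965 were lower by at least 1.5-fold and 0 higher, with medians of -1.14 and -1.22. Ddx21, a nucleolar helicase, was among those that differed most, at 8.97 against 66.4 CPM in A963 and 7.99 against 67.0 in A965, and Utp3 differed least on the log2 scale, at 54.2 against 63.5 and 61.4 against 77.4 CPM. Of 13 RNA polymerase I and III genes, 11 and 10 were lower, and of 27 further growth genes 26 and 26, among them Hspe1, a mitochondrial chaperonin, 10.9-fold and 13.4-fold. Of 86 cytosolic ribosomal protein genes, 83 were lower in A963 and 81 in A965, with medians of -1.58 and -1.03. Mitotic genes stood apart: 0 of 12 were lower in either tag and their median was 0.36 and 0.29, while 5 of 15 S-phase genes in A963 and 8 in A965 were lower. In polyamine metabolism, 3 of 9 genes were lower in each tag, with Sms, spermine synthase, at 13.7 against 50.5 CPM in A963.

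The make-up and the depth of the cells moved with this comparison, and their part in it was not tested. The 10 most abundant genes, led by S100a9 and S100a8, took 43.2% of the counts of secondary granule cells in A963 and 38.7% in A965, against 10.6% and 10.8% in early granule cells. With median-of-ratios scaling, which is less sensitive to such genes, the median was -1.8 and -1.83, and 36 genes were lower in each tag. Cells also held fewer counts: the median total was 16780 in secondary granule and 30578.5 in early granule cells of A963, and 26350 and 43839 in A965. The mean number of counts of the 37 genes per cell was 35.6 against 305 in A963 and 51.5 against 421 in A965.

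From secondary granule to late neutrophil cells, which carry Mmp8, Mmp9 and Retnlg, the summed level was lower again, by less than in the step before. It was 1.22-fold lower in late neutrophil cells of A963 and 1.52-fold lower in A965. In A963, 3 of 37 were lower by at least 1.5-fold (13.8% of all genes) and 1 was higher (8.83%), and in A965 4 were lower (8.42%) and 0 higher (4.16%). These counts depend on the settings: in A963, 12 were lower with 1 CPM added, 12 in cells with few cycle counts, 10 without Scrublet doublet calls and 8 after thinning. In A965, 11 were lower with 1 CPM added and 7 after thinning. The shares of all genes above are for the main setting, and none is given for these alternatives. The medians were -0.16 and -0.13, against -0.07 and -0.12 over all genes. Ran was lower in the later gate of each tag, at 242 against 400 CPM and 221 against 409 CPM. Mif was higher in A963, at 108 against 50.3 CPM (2.14-fold, 1.71 to 2.66). Rrs1 had no count in the 53 late neutrophil cells of A963, which allows up to 4.46 CPM, and 340 counts in the secondary granule gate. These gates differed in depth, with 826357 and 23522531 counts in all. The lower genes were Rrs1, Ran and Pes1 in A963, the last on few counts, and Ran, Pa2g4, Eif5a and Nop56 in A965. Of 15 S-phase genes 14 were lower in A963 and 15 in A965, and of 12 mitotic genes 7 and 8.

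Later monocyte cells, gated on Fn1, Ccr2, Ms4a6c, S100a4 and Ly6c2, stood below early monocyte cells. The summed level was 1.45-fold lower in A963 (1.43 to 1.46) and 1.83-fold lower in A965 (1.81 to 1.85). In A963, 18 of 37 genes were lower by at least 1.5-fold, against 2.37% of all genes, and in A965 23, against 7.19%. None of the 37 was higher by that much, against 3.1% and 7.37% of genes. The median was -0.54 in A963 and -0.87 in A965, against -0.05 and -0.08.

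Gnl3 was 2.65-fold lower in later monocyte cells of A963 (19.0 against 50.3 CPM) and 4.90-fold lower in A965 (8.13 against 39.9 CPM). Srm was 2.42-fold lower in A963, at 34.9 against 84.4 CPM, and Apex1 3.39-fold lower in A965, at 28.6 against 96.6 CPM. Nop56 stood at 84.3 against 157 CPM in A963 and 49.2 against 128 in A965. Against this, Ran stood at 752 against 879 CPM in A963, and Rrp9 at 13.2 against 12.4. Npm3 stood at 128 against 141 CPM in A963 and 66.5 against 119 in A965. Of the further biogenesis factors 4 of 45 were lower in A963 and 13 in A965, and of the further growth genes 6 and 18 of 27, among which Ccnd2, a cyclin that Myc raises, was 9.98-fold and 9.63-fold lower. Cytosolic ribosomal protein genes differed less, with medians of -0.17 and -0.31, and mitotic genes were above 0 in median, at 0.27 and 0.33.

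In the erythroid pair, cells gated on globin genes and Alas2 stood below cells gated on Klf1, Gata1, Car1, Ermap and Epor. These gates overlapped in their markers. Klf1 stood at 387 CPM in late and 321 in early erythroid cells of A963, and at 316 and 311 in A965. Ermap was also higher in the late gate of each tag, and Gata1, Car1 and Epor in the early one. Globins summed to 14160 and 11910 CPM in early erythroid cells, against 84260 and 60140 in late ones. The summed level of the 37 was 1.81-fold lower in late erythroid cells of A963 (1.796 to 1.826) and 1.79-fold lower in A965 (1.76 to 1.82). In A963 33 genes were lower by at least 1.5-fold, where 10% of all genes were, and in A965 31, where 11.8% were. None was higher by that much, where 3.07% and 7.49% of genes were. The medians were -1.05 and -0.95, against -0.14 and -0.10 over all genes. On the log2 scale Srm differed most, at 38.7 against 178 CPM in A963 and 43.0 against 221 in A965, 4.61-fold and 5.13-fold lower. Npm3 was 4.02-fold lower in A963, Wdr12 3.46-fold and 3.64-fold, Rrp9 4.51-fold and 5.46-fold, and Polr1b 5.86-fold and 3.27-fold.

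Odc1 was the exception in this pair, at 350 against 295 CPM in A963 (ratio 1.19, 1.14 to 1.24) and 308 against 274 in A965 (1.13, 1.02 to 1.24). The next polyamine enzyme, Srm, differed the other way, as above. Among further polyamine genes Smox, spermine oxidase, was higher in late erythroid cells, at 74.6 against 28.1 CPM and 59.3 against 17.7, and Azin1, an activator of Odc1 protein, stood at 187 against 119 and 175 against 120. Amd1, which supplies the aminopropyl donor, stood at 101 against 160 CPM in A963. Here cytosolic ribosomal protein genes differed little, with medians of -0.12 and -0.14 and 0 and 1 of 86 lower by at least 1.5-fold, while 32 of 45 further biogenesis factors were lower in each tag. S-phase and mitotic genes had medians above 0, at 0.33 and 0.42 in A963 and 0.40 and 0.38 in A965.

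Between stem and early granule cells the 37 genes showed no shared direction. The summed level was 1.11 times that of stem cells in A963 (1.09 to 1.12) and 0.963 times in A965 (0.951 to 0.976). In A963 1 gene was higher by at least 1.5-fold (9.3% of all genes) and 0 lower (17.7%), and in A965 1 was higher (11.6%) and 3 lower (17.8%). Srm stood at 153 CPM in early granule against 81.0 in stem cells of A963, and Eif5a at 1367 against 851 in A965. Nop58 and Gnl3 were lower in early granule cells of A965, at 99.9 against 181 CPM and 58.4 against 111, as was Wdr12, at 72.7 against 130.

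**Figure D3:**
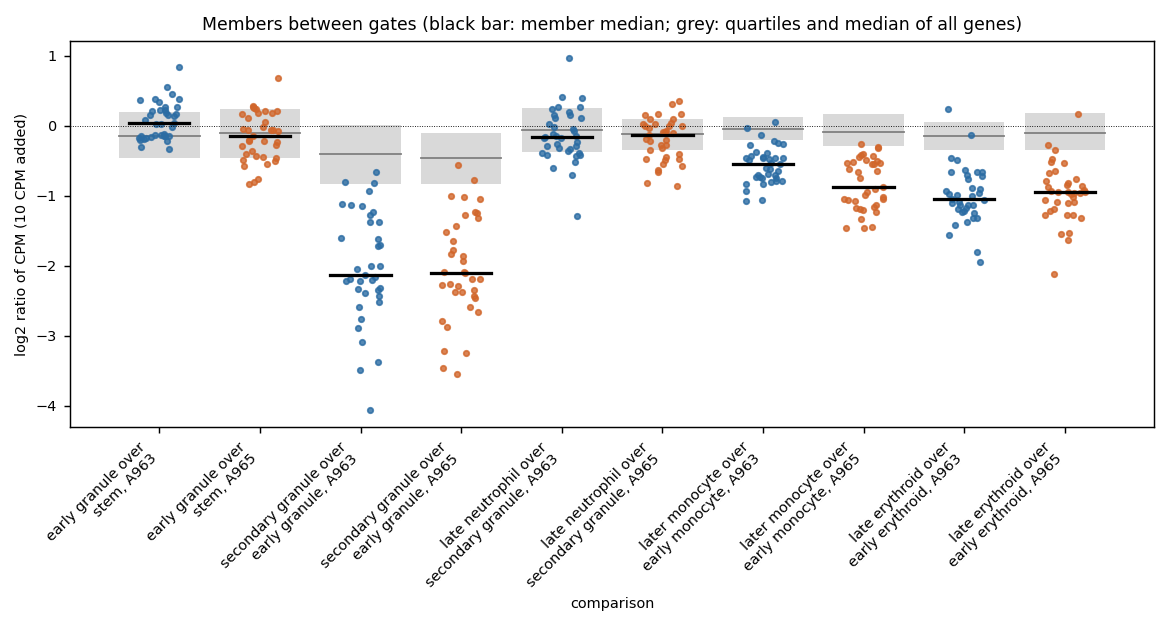
Log2 ratio of CPM between gates, with 10 CPM added, for each of the 37 genes in A963 (blue) and A965 (orange); black bars are the median of the 37, and grey boxes and lines the quartiles and median of all genes with at least 10 CPM in either gate. From early to secondary granule the medians were -2.13 and -2.10, below the grey boxes, and from early to late erythroid -1.05 and -0.95, with Odc1 above 0.

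Myc itself was high where the 37 genes were high, with exceptions. It stood at 60.9 CPM in stem cells of A963 and 57.4 in A965, at 54.8 and 67.2 in early erythroid, 48.8 and 68.8 in megakaryocyte and 67.1 and 38.4 in lymphoid cells. In secondary granule cells it stood at 3.02 and 0.970 CPM and in late neutrophil cells at 2.42 and 1.99. Plasmacytoid cells were an exception: Myc stood there at 3.43 and 3.95 CPM, near its neutrophil level, whereas the 37 genes summed to 5438 and 5074 CPM. In later monocyte cells Myc was at 12.4 CPM in A963 and 3.77 in A965. Mycl, a relative of Myc, was at 27.9 and 29.0 CPM in plasmacytoid cells and at 24.9 and 34.4 in conventional dendritic cells.

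Mycn, the other relative of Myc, was seen in megakaryocyte cells (54.9 and 45 CPM), stem cells (29.6 and 13.5) and lymphoid cells of A963 (19.2, against 1.12 in A965). Mxd1, which pairs with Max and acts against Myc, stood at 53.6 and 66.3 CPM in secondary granule cells and at 98.0 and 114 in late neutrophil cells. In the other 11 gates it did not exceed 16.1 CPM. Other genes of its family, whose proteins also pair with Max, had other profiles. Mxd4 was highest in lymphoid cells (124 and 109 CPM), at 95.5 and 82.4 CPM in stem cells, 25.6 and 21 in secondary granule and 78.7 and 55.7 in late neutrophil cells. Mxd3 was highest in plasmacytoid cells (132 and 111 CPM), with 51.7 and 60.2 CPM in secondary granule and 32.7 and 28.4 in late neutrophil cells. Mxi1 was highest in late neutrophil cells of A963 (41.1 CPM, from 34 counts) and secondary granule cells of A965 (27.8 CPM). Max stood between 58.8 and 95.2 CPM in A963 and between 53.5 and 124 in A965, a narrow range beside those of Myc and Mxd1.

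**Figure D4:**
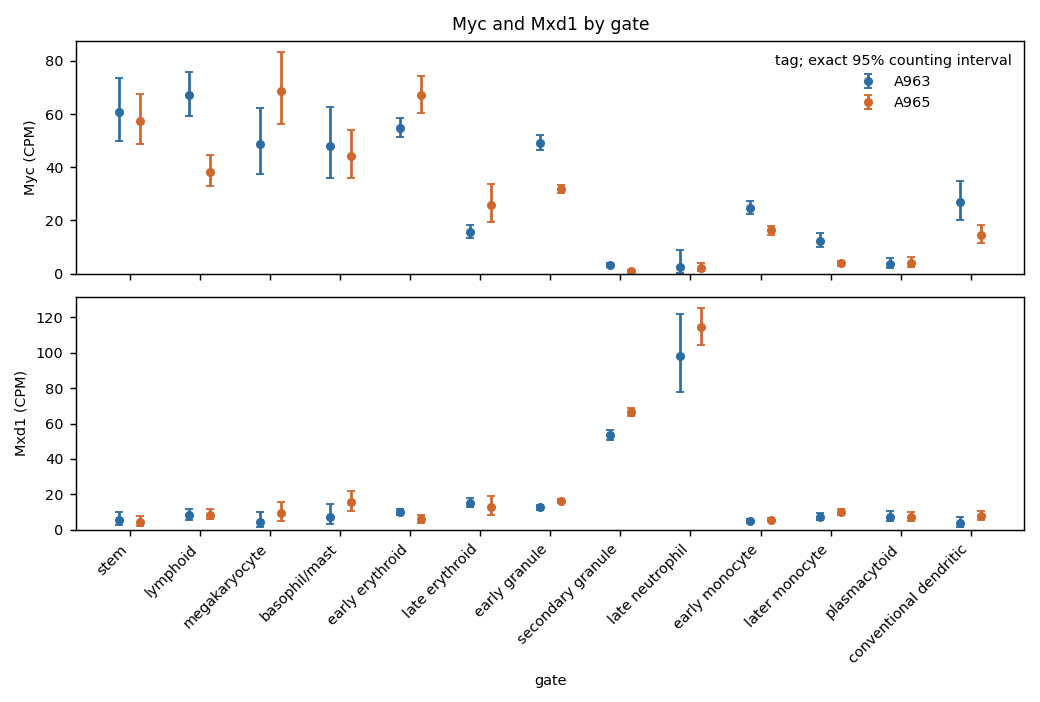
Level of Myc and Mxd1 in CPM, by gate, for A963 and A965, with exact 95% counting intervals. Mxd1 stood at 53.6 to 114 CPM in the secondary granule and late neutrophil gates and at or below 16.1 elsewhere, and Myc was at or below 3.02 CPM in these 2 gates.

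Within gates, the 37 genes were set against the cell cycle by correlating, over thinned cells, their summed counts with those of 27 S-phase and mitotic genes, which share none of the 37. In early erythroid cells the correlation was -0.438 over 362 cells of A963 and -0.159 over 118 cells of A965, so cells with more cycle counts had fewer counts of the 37. In early granule cells it was -0.15 over 692 cells and -0.267 over 1127 cells. In secondary granule cells it had the other sign, 0.417 over 1287 cells and 0.263 over 1643. Stem cells also showed 0.358 and 0.288. Late neutrophil cells had the highest values, 0.586 over 53 cells of A963 and 0.479 over 185 of A965. The sign differed between A963 and A965 in late erythroid cells (-0.072 and 0.268) and in early monocyte cells (-0.101 and 0.197). The counts of the 37 per thinned cell in early erythroid cells were 130.5 in median in the 132 cells of A963 with the fewest cycle counts and 83 in the 121 with the most. These are correlations over cells of 1 library, given as a description.

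Genes outside the 37 and outside every other gene list used here were ranked by likeness to the mean of the 37. The 4736 genes ranked had at least 50 CPM in some profile, with Gm-number and Rik names left out. The further biogenesis, growth, ribosomal protein and cell cycle genes of those lists were thus not ranked. The closest were Cct6a, Nsun2, Cct3, Hspa9 and Adsl, with correlations of 0.991, 0.987, 0.986, 0.984 and 0.979 over the 26 profiles. Rbis, Park7, Lsm7, Fkbp4 and Mtln came next, from 0.979 to 0.974. Cct6a and Cct3 are subunits of the chaperonin that folds actin and tubulin, Nsun2 is an RNA methyltransferase and Hspa9 a mitochondrial chaperone. Cct6a stood at 461 and 471 CPM in early erythroid and 65.3 and 66.5 in secondary granule cells.

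Over all cells, the 37 genes summed to 7316 CPM in A963 and 6183 in A965, with 6367, 7251 and 5718 in A961, A962 and A964. In A965 against A963, 36 of 37 had a log2 ratio below 0 and the median was -0.34, against -0.05 over all genes. The median of all genes was thus below 0 as well, and their share below 0 is not given. Of the 37, 3 were lower by at least 1.5-fold, where 2.54% of 8025 genes were, and 0 higher, where 1.93% were. With 1 CPM added 6 were lower by that much, and in cells with few cycle counts 0 were. No share of all genes is given for those settings. Odc1 was 2.29-fold lower (48.7 against 112 CPM), Gnl3 1.68-fold (40.1 against 67.3) and Nop58 1.59-fold (71.0 against 113). Mif alone was above 0, at 594 against 577 CPM. The tags differed in their cells too: 1643 of 5567 cells of A965 and 1287 of 4716 cells of A963 were in the secondary granule gate, 118 against 362 in the early erythroid and 56 against 277 in the late erythroid gate. The difference over all cells was not split between gate shares and levels within gates.

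Within gates, the median of the 37 was below 0 in A965 for 8 of 13 gates. It was lowest in conventional dendritic cells (-0.49) and later monocyte cells (-0.41), then in lymphoid (-0.29), early monocyte (-0.23), late neutrophil (-0.21), plasmacytoid (-0.21), secondary granule (-0.17) and early granule cells (-0.11). The late neutrophil median turned to 0.072 without Scrublet calls and 0.046 in cells with few cycle counts, where none of the 37 was lower by 1.5-fold. The secondary granule median was -0.40 with 1 CPM added, and the early granule median -0.22 after thinning and -0.062 with a gate margin of 0.25. It was above 0 in late erythroid (0.12), stem (0.10), early erythroid (0.07), megakaryocyte (0.04) and basophil or mast cells (0.01). In later monocyte cells 15 of 37 were lower by at least 1.5-fold, against 2.5% of genes, and in conventional dendritic cells 15, against 3.78%. None was higher by that much in either, where 3.9% and 2.54% of genes were. Elsewhere at most 5 were lower, in late neutrophil cells (10.5% of genes), 3 in lymphoid cells (2.19%) and 1 each in plasmacytoid (1.88%) and late erythroid cells (1.29%). Higher by that much were 2 each in megakaryocyte (6.6%), basophil or mast (5.78%) and late erythroid cells (6.26%), and 1 each in secondary granule (1.73%) and late neutrophil cells (6.29%). In stem, early erythroid, early granule and early monocyte cells none of the 37 passed 1.5-fold either way. The shares of all genes higher and lower were 3.52% and 4.73% in stem cells, 0.635% and 0.212% in early erythroid cells, 0.983% and 0.383% in early granule cells, and 1.01% and 0.374% in early monocyte cells. For the directions with no member elsewhere, the shares were 1.45% higher in lymphoid and 0.929% higher in plasmacytoid cells, and 6.8% lower in megakaryocyte, 8.89% lower in basophil or mast and 0.518% lower in secondary granule cells.

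In later monocyte cells Nop58 stood at 27.0 CPM in A965 and 62.4 in A963, and Nop16 at 17.6 against 41.5 CPM. Ppan, an assembly factor of the large subunit, was 2.77-fold lower, at 9.19 against 25.5 CPM. Each had its level in A965 below that in A963, and Polr1b, at 2.84 against 2.65 CPM, was the only one of the 37 above. The share of all genes above their A963 level there is not given. In conventional dendritic cells Nop58 stood at 49.3 against 103 CPM and Srm at 18.6 against 40.9, whereas Npm1 stood at 1083 against 931. Npm1 was above its A963 level in plasmacytoid cells as well, at 1135 against 787 CPM, and in early monocyte cells, at 1519 against 1221. In secondary granule cells Mif stood at 84.9 against 50.3 CPM.

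Cytosolic ribosomal protein genes differed from the 37 in several of these gates. Their median was 0.15 in conventional dendritic cells, with 81 of 86 above 0, and 0.30 in plasmacytoid cells, with 80 of 86 above 0. It was -0.15 in later monocyte cells. Over all genes with at least 10 CPM in both tags the medians in these gates were -0.03, -0.10 and -0.06. The share of all genes above 0 in these gates is not given. Beside the later monocyte values, the median cycle count per thinned cell was 33 in A965 and 41 in A963, and 35 of 607 cells of A965 and 52 of 284 of A963 lay within 0.1 of their next gate. Median totals there were close, at 20984 and 21146.5 counts. Conventional dendritic cells of A963 held 507 CPM of macrophage markers and those of A965 166 CPM. Lineage markers differed too. In later monocyte cells of A963 and A965, S100a4 stood at 1301 and 1931 CPM, Ccr2 at 514 and 732, and Vcan at 9.27 and 71.0. Ly6c2 ran the other way, at 7626 and 6318 CPM. In conventional dendritic cells Xcr1 stood at 35.8 and 10.5 CPM and Cd209a at 235 and 61.6. Ciita, at 72.5 and 88.4, and Zbtb46, at 10.8 and 11.0, were not lower in A965. The part of these values in the difference was not tested, and mouse, treatment, sex-linked differences and tag cannot be told apart.

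**Figure D5:**
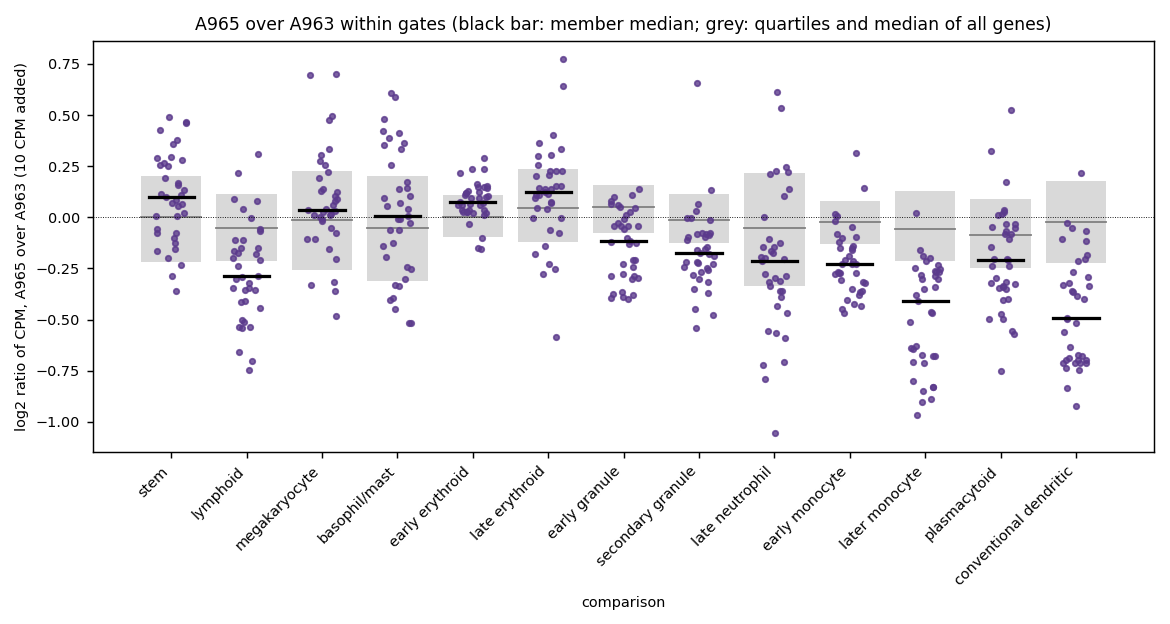
Log2 ratio of CPM of A965 over A963 within each gate, with 10 CPM added, for each of the 37 genes; black bars are the median of the 37, and grey boxes and lines the quartiles and median of all genes with at least 10 CPM in either tag. Medians of -0.41 in later monocyte and -0.49 in conventional dendritic cells lie lowest, and early erythroid cells at 0.07 are close to 0.

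The 3 small tags held 68 to 104 cells each. The 37 genes summed to 6367 CPM in A961, 7251 in A962 and 5718 in A964. Against A964, 12 of 37 were higher by at least 1.5-fold in A962 (4.16% of genes) and 5 in A961 (5.46%), and 0 were lower in either (5.93% and 4.58%), with medians of 0.41 and 0.23. As a mean of per-cell CPM, 19 were higher in A962 and 12 in A961, and after thinning 10 were in A961. In A961 against A962, 4 were lower (3.13%) and 0 higher (5.01%), and 7 were lower with 1 CPM added. The shares of all genes in brackets are for the main setting only. Srm stood at 64.1 CPM in A961, 110 in A962 and 36.0 in A964, and Dkc1 at 84.5, 88.1 and 39.4. Polr1a ran against these, at 7.63, 7.42 and 14.8 CPM, on few counts. These comparisons share A964 or A962. The tags differed in their gates: 41 of 104 cells of A962 were in the early granule gate, against 6 of 68 of A961 and 8 of 73 of A964, and 31 of 68 cells of A961 were in the early monocyte gate. A964 stood apart in sex-linked transcripts too, with Xist at 59.7 CPM against 486 in A961 and 409 in A962, and summed Y-linked genes at 86.0 against 39.2 and 21 CPM. The part of gates and of these transcripts in the differences was not tested.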

How the data were processed

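Mouse bone marrow cells were measured by single-cell RNA-seq in 1 library. The authors deposited whole-number counts per gene and cell, whose cell names give the tag, per the labels. Whether counts are of molecules or reads, and the aligner, annotation and counting tool, are not given in the sources used here; per the submitters' processing notes, Seurat 4.2.0, R 4.2.1 and the build GRCm38 were involved, with no step named. Of 10731 deposited cells, 10535 had 1 tag, 190 were named doublets and 6 had no detected tag, and 0 columns belonged to other series. Another 7 cells with under 500 genes or over 20% mitochondrial counts were left out.

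Counts were summed over cells per tag and gate and scaled to CPM (Python 3.11.15, scanpy 1.11.5, numpy 2.4.6, scipy 1.17.1, pandas 2.3.3). Gate scores used log values scaled to 10000 counts, standardised over all cells and limited to 3. Gates and comparisons were reported with at least 50 cells per tag. Ratios have exact 95% conditional binomial intervals, and levels exact Poisson intervals, which cover counting error only. A gene counts as higher or lower past 1.5-fold in the log2 ratio with 10 CPM added, among genes with at least 10 CPM in either group; printed folds have none added, so a listed gene can pass 1.5-fold and not be counted. Members of the lists were counted whatever their level. The 223 cells (2.12%) that Scrublet marked as doublets were kept, and an alternative dropped them. The interval step was tested on simulated counts. Members named with values are, by role, those with the largest and the smallest ratio and any against the direction of the group, with Myc, Mycn and Mxd1 always; a few others were chosen after their values were seen. The members, lists and gates were chosen with earlier results of these data known. Gene coordinates (1-based) and exons came from GENCODE M21 on GRCm38, which held 24749 of the 25661 symbols. Alternatives were another scaling, 1 CPM added, scarce members left out, thinned cells, per-cell means, low-cycle cells and other gate limits. Shares over all genes are given for the main setting only.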

Additional observations from a re-analysis of the deposited data

Results flagged for a closer look

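For 6 of the 37 genes, A965 lay above A963 by at least 1.5-fold in some gate and below it by at least 1.5-fold in another, with counting intervals that did not include 1. These are the most and least of 13 gates, and the difference between gates was not tested. How many of all genes met the same rule is not given, so 6 of 37 has no share to stand beside. On the log2 scale with 10 CPM added, Gnl3 was at -0.75 in conventional dendritic and 0.70 in megakaryocyte cells, and Utp20 at -0.70 and 0.69 in the same gates. Mif was at -0.79 in late neutrophil and 0.65 in secondary granule cells. Mrto4 was at -0.59 in late neutrophil and 0.61 in basophil or mast cells. These cases depended on the settings. In late neutrophil cells 0 of the 37 were lower by 1.5-fold without Scrublet calls, and 0 in cells with few cycle counts. In basophil or mast cells 0 were higher by that much with a gate score of 0.5 or of 1. Npm3 was at -0.85 in later monocyte and 0.77 in late erythroid cells, and Wdr43 at -0.75 in plasmacytoid and 0.64 in late erythroid cells. The late neutrophil gate of A963 and the late erythroid gate of A965 held 53 and 56 cells. The megakaryocyte gate held 61 cells of A963 and 57 of A965, and Utp20 had few counts there.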

How the results depend on the processing

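Of 126 alternative medians of the comparisons, 105 stayed within the counting interval of the median gene, 19 moved beyond it and 2 changed sign. Of 129 within gates, 111 stayed, 10 moved and 8 changed sign. No paired analysis was possible because the library had no replicates. Early granule over stem in A963, 0.05 as reported, was -0.0095 as a mean of per-cell CPM and -0.025 without Scrublet calls. For secondary over early granule in A963, the median was -1.80 with median-of-ratios scaling, -2.62 with 1 CPM added, -2.24 without Scrublet calls and -2.28 in cells at or below the median cycle count. In A965 it was -1.83, -2.88 and -2.34 with the same settings apart from Scrublet, -1.99 as a mean of per-cell CPM and -2.23 with a gate margin of 0.25. Later over early monocyte was -0.77 and -0.69 in A963 with 1 CPM added and with the margin, and -1.07 and -1.04 in A965, with -1.02 in low-cycle cells. Late neutrophil over secondary granule in A965 was -0.42 with 1 CPM added and -0.45 without genes under 10 CPM. Late over early erythroid in A963 was -0.92 with median-of-ratios scaling. A965 over A963 over all cells was -0.41 with 1 CPM added and -0.27 in low-cycle cells, where 0 of 37 passed 1.5-fold. Within gates, medians that changed sign were stem -0.0087 and early erythroid -0.0029 after thinning, early erythroid -0.011 in low-cycle cells, basophil or mast -0.028 after thinning, -0.054 with a gate score of 0.5 and -0.0098 with the margin, and late neutrophil, -0.21 as reported, 0.072 without Scrublet calls and 0.046 in low-cycle cells. Those that moved were early granule (-0.16 with median-of-ratios scaling, -0.22 thinned, -0.18 as a mean of per-cell CPM, -0.064 in low-cycle cells and -0.062 with the margin), secondary granule (-0.40 with 1 CPM added) and later monocyte (-0.60, -0.53, -0.52 and -0.60 with 1 CPM added, thinned, per-cell and low-cycle). Counts of lower genes within gates differed as well: 7 in lymphoid and 7 in plasmacytoid cells with 1 CPM added, 5 in secondary granule cells with 1 CPM added, and 5 in early monocyte cells after thinning; in late neutrophil cells 13 with 1 CPM added and 0 as a mean of per-cell CPM. Early granule over stem in A965 had 7 lower with 1 CPM added, against 3. The number of gates with a median below 0 lay between 7 (without Scrublet calls) and 11 (after thinning), against 8 as reported. Of the 37, 6 were lower in A965 over all cells with 1 CPM added and 1 with median-of-ratios scaling. No share of all genes stands beside the counts at alternative settings. The cause of these shifts was not tested.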
